A study of Saccharomyces cerevisiae with 46 samples.

Results

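The genes of sugar breakdown and of its reversal were followed in budding yeast (*Saccharomyces cerevisiae*) that lacked the transcription elongation factor Spt4 or were depleted of Spt4 or of its partner Spt5. The set holds 36 genes, named by their row identifiers in the deposited tables of normalized counts, and covers glycolysis, gluconeogenesis, the fermentation of pyruvate to ethanol and acetate, and the branch to glycerol. Of these, 34 had a row in the table of *spt4Δ* and WT cells, which lists 5572 genes, and 27 had a row in each of the anchor-away tables, which list 4835 genes. The expression of *FBP1* (YLR377C), the fructose-1,6-bisphosphatase of gluconeogenesis, and of 1 further aldehyde dehydrogenase gene is not analysed here. The promoter of *FBP1* is included where promoters are counted. *HXK1*, *TDH1*, *ENO1*, *ADH2*, *ALD2*, *ALD4* and *PCK1* were measured in the *spt4Δ* table only.

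RNA-seq was performed on 10 libraries in 5 groups of 2. The *spt4Δ* cells (BY4741 *spt4Δ* RPB3-3xFLAG) and the WT cells (BY4741 RPB3-3xFLAG) were untreated. The Spt4-AA and Spt5-AA cells carried *tor1-1*, *fpr1Δ*, RPL13-2xFKBP12 and RPB3-3xFLAG, together with SPT4-FRB-eGFP or SPT5-FRB-eGFP, and received rapamycin for 140 min (Spt4-AA) or 180 min (Spt5-AA) before harvest. In this anchor-away system rapamycin ties the FRB-tagged protein to a ribosomal protein, which carries it out of the nucleus. The DMSO group had the same alleles and received DMSO for 120 min. It had 1 library of the SPT4-FRB strain (DMSO replicate 1) and 1 of the SPT5-FRB strain (DMSO replicate 2). No RNA-seq library came from rapamycin-treated cells without an FRB tag. Loss of Spt4 or Spt5, drug, strain and time of treatment therefore cannot be told apart in the anchor-away comparisons. Both of these comparisons use the same DMSO libraries. All cells grew in rich medium with glucose, and *S. pombe* cells were added before lysis as a spike-in. In bulk RNA, fewer cells of a kind and less RNA per cell cannot be told apart.

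Between 798455 and 6814227 reads per library lay behind the tables, with the shallowest libraries in Spt5-AA. The *spt4Δ* libraries had 0 and 4 reads on *SPT4*, against 531 and 250 in WT, and *FPR1* had 7 and 17 reads in Spt4-AA, 1 and 10 in Spt5-AA, and 10 and 14 in DMSO. The values were analysed on 2 scales. The first is the normalized count as deposited. The second is the same count after each library was divided by its median ratio to the other libraries of its table, so that the median gene stands near 0 on the log2 scale. The scales matter because the libraries differed as a whole. Over all genes tested the median log2 fold change as deposited was 0.83 in *spt4Δ* against WT, -0.28 in Spt4-AA against DMSO and -1.84 in Spt5-AA against DMSO. In *spt4Δ* the normalized counts of replicate 1 summed to 12538500, against 3761980 in replicate 2 and 3861290 and 3943990 in WT.

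In glucose, yeast breaks sugar down through glycolysis and turns most of the pyruvate into ethanol, even in air. The enzymes of this route are among the most abundant proteins of the cell, and their genes are activated by Rap1 and Gcr1. Several steps have a second isoenzyme whose gene is held down by glucose, in part through the repressor Mig1, and is used when glucose runs low. The members were therefore read in 3 groups. The main group holds 13 genes of the route in use on glucose, and the glucose-repressed group 11 genes. The other 12 are genes of further isoenzymes, of homologues, and of glycerol and acetate formation.

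In WT cells 10 of the 13 main genes ranked above all other members, while *ADH3* and *ALD6* ranked above *TDH2*, *PFK1* and *PFK2*. On the scale of normalized counts per kb of coding sequence, the WT mean was 45613 for *ADH1* (YOL086C), the alcohol dehydrogenase that makes ethanol, 32889 for *FBA1* (YKL060C), the aldolase, and 20666 for *PGK1* (YCR012W), phosphoglycerate kinase. The lowest main genes were *PFK1* (YGR240C) and *PFK2* (YMR205C), the subunits of phosphofructokinase, at 1460 and 1159. The highest glucose-repressed gene was *ENO1* (YGR254W), an enolase, at 665 per kb. *GLK1* (YCL040W), the glucokinase, and *EMI2* (YDR516C), its close relative, had 381 and 339 per kb. *PYK2* (YOR347C), the minor pyruvate kinase, had 45.5 and *PCK1* (YKR097W), the phosphoenolpyruvate carboxykinase of gluconeogenesis, had 5.17. *PCK1* had 7 and 11 reads in *spt4Δ* and 11 and 7 in WT and was below the minimum mean of 10 normalized counts, which left 33 members for the test of *spt4Δ* and 27 for the others.

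The promoters of the groups were compared for the letters known to be bound by their regulators, in the 500 bases before the start codon and on both strands of the R64 assembly. The Mig1 letters CCCCGC or CCCCAC were in 6 of 10 promoters of glucose-repressed genes, in 5 of 12 of the other genes and in 0 of 13 of the main genes, against 13.6% of all 6000 promoters. The Gcr1 letters CTTCC were in 11 of 13 main promoters, 8 of 10 glucose-repressed and 8 of 12 other promoters, against 66.1% of all. *FBP1* is among the glucose-repressed genes with the Mig1 letters and among those with the Gcr1 letters. The stress response element AGGGG, bound by Msn2 and Msn4, was in 6 of 10 glucose-repressed, 8 of 12 other and 5 of 13 main promoters, against 34.1% of all. The letters TATAAA were in 11 of 13 main, 7 of 10 glucose-repressed and 10 of 12 other promoters, against 60.5%, and the Rap1 core (CACCC, 2 free bases, then ACA) in 1 of 13, 2 of 10 and 0 of 12, against 2.22%. The Mig1 and stress letters can share their run of C or G. A match describes the letters only, and a lack of one holds only for these exact letters in these 500 bases.

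The windows around the Mig1 letters are shown for 6 genes that passed the test as higher in at least 1 comparison, on the coding strand of each gene, with the Mig1 letters or their reverse complement in capitals.
*GLK1*, chrIII:50612-50633, plus strand: cgcttgcaCCCCGCattataag
*EMI2*, chrIV:1476770-1476791, minus strand: caaaaaacGCGGGGcatccaga
*PYK2*, chrXV:986928-986949, minus strand: agattaccCCCCACcggtttca
*GPM2*, chrIV:413729-413750, plus strand: tgttatcaCCCCACgacgaaga
*GPD1*, chrIV:411453-411474, plus strand: cccaaagtCCCCACccacacca
*GPP2*, chrV:281035-281056, minus strand: catctgtgCCCCACaatccgcg
Of the members outside the main group that rose in any comparison, *TDH1* and *ADH4* had no Mig1 letters in this window. Conversely, *HXK1*, *ALD4*, *GPM3* and *ALD6* had the letters and were not called higher. *HXK1* and *ALD4* were measured in *spt4Δ* and WT only. There both were higher without overlap relative to the median gene, beside 20.3% of all genes. *GPM3* and *ALD6* were tested in every comparison and fell as deposited in Spt5-AA. *FBP1* also had the letters, but its expression is not analysed here. In *GLK1* the stress letters lay 182, 174 and 167 bases before the start codon, the first of them in the window acggtcaaCCCCTttcagggg, chrIII:50648-50668, where the capitals are the reverse complement of AGGGG.

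The share of all reads that came from the members does not depend on the scale. In Spt5-AA the members took 8.24% and 8.19% of the reads, against 3.69% and 3.78% in DMSO. The 95% Wilson intervals were 8.18% to 8.30% and 8.13% to 8.24% in Spt5-AA, against 3.67% to 3.72% and 3.75% to 3.80% in DMSO, and cover counting error only. In Spt4-AA the share was 3.33% and 4.13%, on either side of both DMSO libraries. In *spt4Δ* it was 4.90% and 5.46%, below the 5.82% and 5.86% of WT. With 2 libraries against 2, an exact permutation test cannot give a two-sided p below 0.33. The main genes made up most of it in every library, with 7.78% and 7.74% in Spt5-AA against 3.45% and 3.53% in DMSO.

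**Figure D1:**
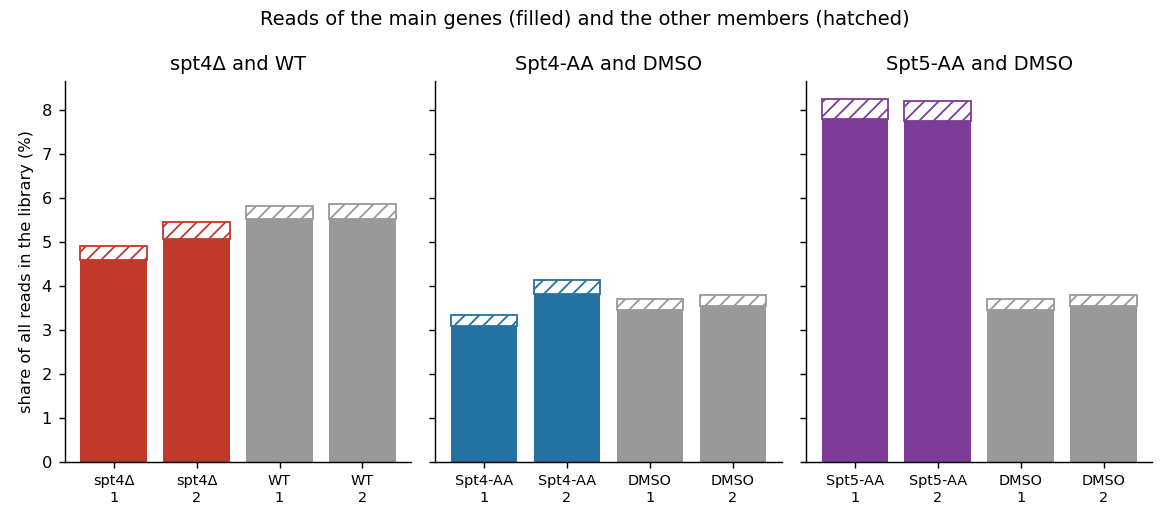
Share of all reads of each library, in percent, that came from the 13 main genes (filled) and the other members in the table (hatched), with 1 bar per library. The Spt5-AA bars reach 8.24% and 8.19%, against 3.69% and 3.78% in DMSO, while the Spt4-AA bars lie on either side of DMSO and the *spt4Δ* bars lie below WT.

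In *spt4Δ* cells 3 genes outside the main group rose and no main gene was called. On the scale relative to the median gene, 3 of 33 members rose and none fell (limma with Benjamini-Hochberg adjustment, adjusted p under 0.05), beside 0.663% of all 5283 genes tested that rose and 0.36% that fell. At an unadjusted p under 0.05 there were 9 members with a positive value, beside 5.92% of all genes, and 3 with a negative one (*ENO2*, *ALD6* and *GPP1*), beside 4.73%. As deposited, 1 member rose and none fell, beside 0.227% and 0.0189% of all genes. On that scale 6 members had an unadjusted p under 0.05, all with a positive value, beside 4.96% of all genes.

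*GPM2* (YDL021W), a homologue of phosphoglycerate mutase, rose most. It lies on chromosome IV from 413953 to 414888 on the plus strand and has 1 coding exon. It had 204 and 172 counts relative to the median gene in *spt4Δ*, against 44.3 and 55.8 in WT, from 239 and 243 reads in *spt4Δ* against 52 and 29 in WT. Both *spt4Δ* libraries were well above both WT libraries. The log2 fold change was 1.89 (SE 0.258, adjusted p = 0.00854 from limma), and 2.72 as deposited (SE 0.698, adjusted p = 0.0462 from limma). The call as deposited was lost with a pseudocount of 10 (adjusted p = 0.0646 from limma), with edgeR (adjusted p = 0.088) and with either WT library left out. *TDH1* (YJL052W), a minor glyceraldehyde-3-phosphate dehydrogenase found in stationary cells, had 386 and 458 in *spt4Δ*, against 110 and 196 in WT (log2 1.51, SE 0.283, adjusted p = 0.0315 from limma). *PYK2* had 255 and 216 in *spt4Δ*, against 77.5 and 108 in WT (log2 1.35, SE 0.251, adjusted p = 0.0305 from limma). The groups did not overlap for either gene. With each library scaled to the same total the adjusted p from limma was 0.0781 for *GPM2*, 0.158 for *TDH1* and 0.153 for *PYK2*. Without WT replicate 1 the calls of *TDH1* and *PYK2* were lost (log2 1.09 and 1.11), and without WT replicate 2 that of *PYK2* (log2 1.60).

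The 8 glucose-repressed genes tested all had a positive log2 fold change relative to the median gene, with a median of 0.98, and *PYK2* was the only one called. *EMI2* had 1913 and 1210 in *spt4Δ*, against 533 and 830 in WT (log2 1.19, adjusted p = 0.104 from limma). *GLK1* had 1430 and 1140, against 577 and 955 in WT (log2 0.78). *HXK1* (YFR053C), the hexokinase of low glucose, had 196 and 335, against 72.4 and 171 in WT (log2 1.19), and *ALD4* (YOR374W), the mitochondrial aldehyde dehydrogenase, had 286 and 438, against 116 and 208 in WT (log2 1.18). *ALD2* (YMR170C), a cytosolic aldehyde dehydrogenase induced by stress, had 221 and 170, against 111 and 117 in WT (log2 0.76), but 40.4% of the 50-base runs of its coding sequence occur elsewhere in the genome, so that this value is uncertain. *ENO1* and *ADH2* (YMR303C), the alcohol dehydrogenase that consumes ethanol, had log2 fold changes of 0.04 and 0.28. In 7 of the 8 genes the groups did not overlap, *ENO1* being the exception, beside 20.3% of all genes that were higher and 20.2% that were lower without overlap. The WT libraries themselves differed in this group. WT replicate 2 was above replicate 1 in 7 of the 8 genes, with a median log2 difference of 0.55, while over the 13 main genes the median difference was -0.0012. The part of this spread in the result was not tested.

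Of the 13 main genes, 11 had a negative log2 fold change relative to the median gene in *spt4Δ*, with a median of -0.22, and none was called. *ENO2* (YHR174W), the main enolase, had 6995 and 10050 in *spt4Δ*, against 15654 and 13126 in WT (log2 -0.77, adjusted p = 0.385 from limma). *PGK1* had 22520 and 20584, against 33926 and 35311 in WT (log2 -0.68), and *CDC19* (YAL038W), the main pyruvate kinase, had 17463 and 18424, against 28607 and 28583 in WT (log2 -0.67). In these 3 genes both *spt4Δ* libraries were below both WT libraries. Of the 13 main genes, 6 were lower without overlap (also *FBA1*, *TDH3* and *GPM1*), beside 20.2% of all genes, and *TPI1* was higher without overlap, beside 20.3%. As deposited all 13 main genes had a positive sign, with a median of 0.62, below the 0.83 of all genes. *GPP1* (YIL053W), the main glycerol-3-phosphatase, had the most negative value of the set relative to the median gene, with 377 and 708 in *spt4Δ*, against 1051 and 970 in WT (log2 -0.96, adjusted p = 0.21 from limma).

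In Spt4-AA the glucokinase genes, *PYK2* and *GPP2* rose and *ALD5* fell. On the scale of the median gene 4 of 27 members rose, beside 4.74% of all 4685 genes tested, and 1 fell, beside 4.25%. As deposited 4 rose and 4 fell, beside 3.03% and 18.8% of all genes. *EMI2* had 516 and 619 in Spt4-AA, against 143 and 148 in DMSO relative to the median gene (log2 1.95, SE 0.163, adjusted p = 0.0021 from limma). *GLK1* had 400 and 512, against 101 and 145 in DMSO (log2 1.90, SE 0.223, adjusted p = 0.00655 from limma). The groups did not overlap for either gene. *GPP2* (YER062C), the glycerol-3-phosphatase induced by osmotic stress, had 127 and 138, against 49.2 and 46.5 in DMSO (log2 1.45, SE 0.186, adjusted p = 0.00782 from limma). *PYK2* had 76.6 and 97.5, against 28.1 and 42.2 in DMSO (log2 1.30, SE 0.272, adjusted p = 0.0315 from limma). Its call was lost without DMSO replicate 1 (log2 1.01, adjusted p = 0.224 from limma).

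*ALD5* (YER073W), a mitochondrial acetaldehyde dehydrogenase, was the member that fell. It had 276 and 423 relative to the median gene in Spt4-AA, against 649 and 734 in DMSO (log2 -1.01, SE 0.221, adjusted p = 0.0359 from limma). Both Spt4-AA libraries were below both DMSO libraries, but the call was lost without DMSO replicate 1 or without DMSO replicate 2 (log2 -1.11 and -0.93). As deposited *GPP1* (log2 -0.86), *PGK1* (-0.85) and *CDC19* (-0.83) fell as well, and with the median gene as the base they had -0.57, -0.55 and -0.54 and were not called. As deposited, no member was called without DMSO replicate 1 or without DMSO replicate 2, with 1 library left in that group.

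None of the 13 main genes was called relative to the median gene in Spt4-AA (limma, 0 with an unadjusted p under 0.05), and their median was -0.08. *TPI1*, *HXK2* and *ADH3* differed more between the Spt4-AA libraries than between the DMSO libraries. *TPI1* (YDR050C), triosephosphate isomerase, had 2347 and 5361 in Spt4-AA, against 3131 and 3602 in DMSO. *HXK2* (YGL253W), the hexokinase of growth on glucose, had 917 and 1677, against 1638 and 1650 in DMSO. *ADH3* (YMR083W), the mitochondrial alcohol dehydrogenase, had 772 and 2058, against 1093 and 1355 in DMSO. For these 3 genes replicate 1 was the lower Spt4-AA library. Among all members tested, 9 were higher and 9 lower without overlap, beside 28.2% and 28.1% of all genes.

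In Spt5-AA most members fell as deposited and most rose relative to the median gene. As deposited 19 of 27 fell and 4 rose, beside 90.7% of all 4673 genes tested that fell and 2.38% that rose. On the scale of the median gene 17 rose and 6 fell, beside 25.9% and 28.2% of all genes. The main genes had a median log2 fold change of -0.93 as deposited, against -1.84 over all genes, and 0.93 relative to the median gene.

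*GLK1* rose most on both scales. It lies on chromosome III from 50838 to 52340 on the plus strand, with 1 coding exon, and overlaps the open reading frame YCL042W on the same strand. As deposited it had 966 and 902 normalized counts in Spt5-AA, against 119 and 182 in DMSO (log2 2.66, SE 0.174, adjusted p = 1.97e-14 from limma). Relative to the median gene it had 1946 and 1629, against 64.1 and 92.7 in DMSO (log2 4.51, SE 0.17, adjusted p = 3.24e-11 from limma). *EMI2* had 374 and 296 as deposited, against 169 and 186 in DMSO (log2 0.91, SE 0.169, adjusted p = 1.33e-05 from limma), and a log2 fold change of 2.76 relative to the median gene. *PYK2* had 57.7 and 59.4 as deposited, against 33.2 and 52.9 in DMSO, which was not called (adjusted p = 0.0846 from limma), and rose by 2.29 relative to the median gene.

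The genes of glycerol formation moved apart. *GPD1* (YDL022W), the glycerol-3-phosphate dehydrogenase induced by osmotic stress, had 136 and 144 normalized counts as deposited in Spt5-AA, against 80.2 and 48.8 in DMSO (log2 1.15, SE 0.22, adjusted p = 1.88e-05 from limma). *GPP2* had 142 and 147, against 58.1 and 58.3 in DMSO (log2 1.30, SE 0.2, adjusted p = 7.14e-07 from limma). They rose by 2.98 and 3.13 relative to the median gene. Their partners fell on both scales. *GPD2* (YOL059W), the dehydrogenase of growth without oxygen, had 38.2 and 51.4 as deposited, against 238 and 214 in DMSO (log2 -2.32, and -0.48 relative to the median gene). *GPP1* had 80.6 and 93.6, against 474 and 449 in DMSO (log2 -2.40, and -0.54 relative to the median gene). The call of *GPD2* relative to the median gene was lost with DESeq2 (adjusted p = 0.193), with each library scaled to the same total (adjusted p = 0.123 from limma), and with either DMSO library or Spt5-AA replicate 1 left out. That of *GPP1* was lost without DMSO replicate 1.

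Of the 13 main genes, 11 fell as deposited, beside 90.7% of all genes. *GPM1* (YKL152C), phosphoglycerate mutase, and *TDH2* were not called. On the other scale 10 rose, beside 25.9% of all genes, 2 fell, beside 28.2%, and *PFK2* was not called. *TDH2* (YJR009C), a glyceraldehyde-3-phosphate dehydrogenase, had 1038 and 1270 as deposited in Spt5-AA, against 939 and 1017 in DMSO (log2 0.23, adjusted p = 0.148 from limma), and rose by 2.09 relative to the median gene. Its near copy *TDH3* (YGR192C), the main enzyme of this step, had 3353 and 3654, against 5654 and 5371 in DMSO (log2 -0.65, and 1.21 relative to the median gene). *GPM1* had 8533 and 7581, against 9985 and 10492 in DMSO (log2 -0.35, and 1.51 relative to the median gene). *ADH1* had 14368 and 14062, against 18159 and 21906 in DMSO (log2 -0.49, and 1.37 relative to the median gene). As deposited, the call of *TPI1* (log2 -0.55) was lost without DMSO replicate 2 or without Spt5-AA replicate 1, and that of *ADH1* without DMSO replicate 2 or with either Spt5-AA library left out. On the scale of the median gene *TPI1* rose by 1.31, *FBA1* by 1.01, *CDC19* by 0.93, *ENO2* by 0.88, *PGK1* by 0.41 and *PGI1* (YBR196C), phosphoglucose isomerase, by 0.37. The last 2 calls were lost with either DMSO library left out.

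The main genes *HXK2* and *PFK1* fell on both scales. *HXK2* had 379 and 441 normalized counts as deposited in Spt5-AA, against 1932 and 2069 in DMSO (log2 -2.29), and relative to the median gene fell by 0.43. *PFK1* had 449 and 453, against 2307 and 2508 in DMSO (log2 -2.41), and fell by 0.55 relative to the median gene. With either DMSO library left out the call of *HXK2* relative to the median gene was lost, and that of *PFK1* without DMSO replicate 2. *PFK2* had 382 and 384, against 1152 and 1282 in DMSO (log2 -1.66, and 0.19 relative to the median gene).

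Among the other members *ALD5* fell most, to 90.8 and 112 normalized counts as deposited in Spt5-AA, against 766 and 920 in DMSO (log2 -3.05, and -1.19 relative to the median gene). *ADH3* had 193 and 223, against 1289 and 1699 in DMSO (log2 -2.83, and -0.97 relative to the median gene). *ADH4* (YGL256W), an alcohol dehydrogenase, had 123 and 144, against 159 and 198 in DMSO (log2 -0.41, and 1.44 relative to the median gene). Its call as deposited was lost with DESeq2 (adjusted p = 0.129), without DMSO replicate 2 and without Spt5-AA replicate 1. *ADH5* (YBR145W), *ALD6* (YPL061W), the cytosolic acetaldehyde dehydrogenase, and *GPM3* (YOL056W), a further homologue of phosphoglycerate mutase, fell as deposited and had log2 values of 0.45, 0.19 and -0.48 relative to the median gene, none of them called. *GPM2* had 13.6 and 12.9 as deposited, against 16.6 and 16.3 in DMSO (not called), and rose by 1.44 relative to the median gene. Over the 27 members 20 were higher and 7 lower without overlap relative to the median gene, beside 37.9% and 38.9% of all genes.

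**Figure D2:**
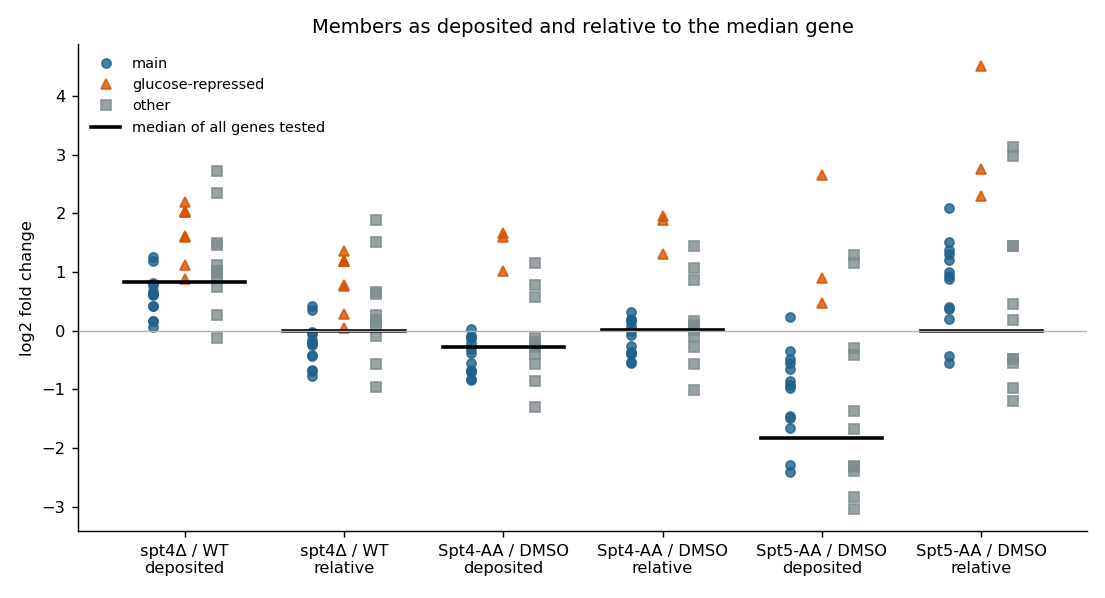
Log2 fold change of each member tested, as deposited and relative to the median gene, for the 3 comparisons, with main genes as circles, glucose-repressed genes as triangles, other genes as squares and the median of all genes tested as a black line. In Spt5-AA the median of the main genes is -0.93 as deposited and 0.93 relative to the median gene, on opposite sides of 0 but above the black line in both.

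**Figure D3:**
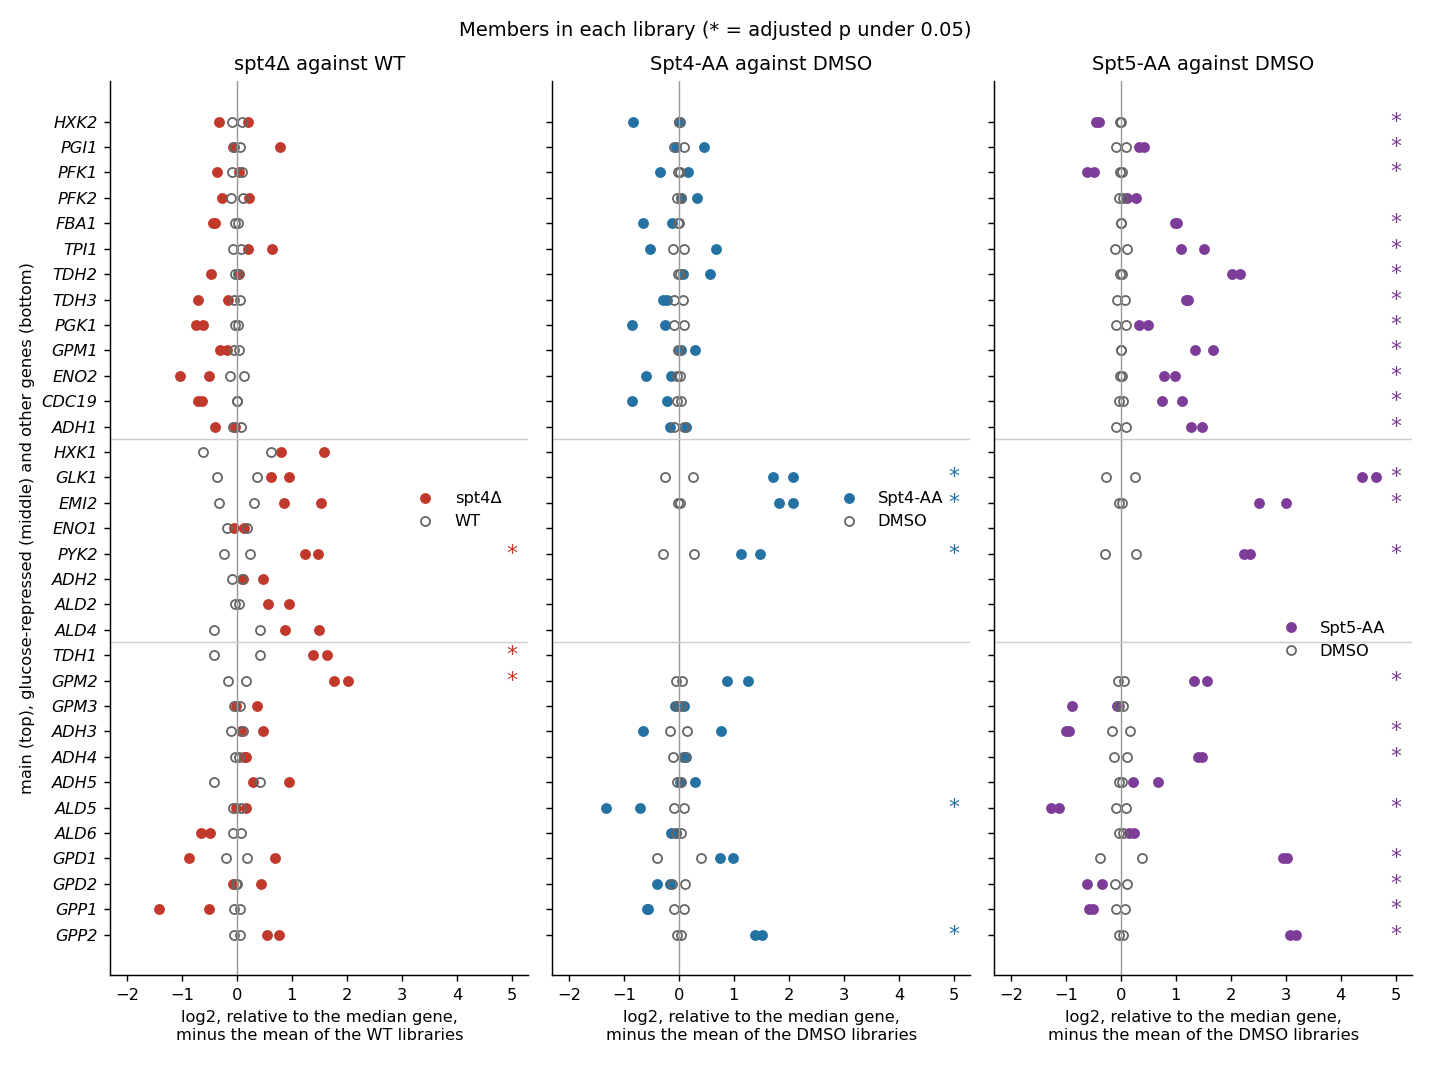
Each library's log2 value relative to the median gene, minus the mean of the WT or DMSO libraries, for the members tested, with filled points for *spt4Δ*, Spt4-AA or Spt5-AA libraries, open points for WT or DMSO libraries and a star at an adjusted p under 0.05 (limma). *GLK1*, *EMI2* and *PYK2* lie right of the open points in all 3 panels, and *GLK1* in Spt5-AA is farthest, around 4.51.

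The median of the glucose-repressed genes minus that of the main genes was positive in each comparison. It is a difference of log2 fold changes and the scaling cancels from it, apart from the pseudocount. It was 1.20 in *spt4Δ* (8 genes against 13), with 1.28 and 0.91 in the *spt4Δ* libraries, against -0.28 and 0.28 in the WT libraries. It was 1.98 in Spt4-AA, with 2.05 and 1.94, against -0.24 and 0.24 in DMSO. It was 1.83 in Spt5-AA, with 1.98 and 1.53, against -0.24 and 0.24 in DMSO. In the anchor-away tables it rests on *GLK1*, *EMI2* and *PYK2* alone. Both treated or mutant libraries were above both WT or DMSO libraries each time, with 0.33 as the smallest p that 2 libraries against 2 allow. The values per library were centred, gene by gene, on the mean of the 2 WT or DMSO libraries. The 2 WT or DMSO values therefore have the same size and opposite signs by construction.

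Within a library, the ratio of 2 genes needs no scaling, and 12 pairs of isoenzymes or homologues were compared as a description. For each 100 counts of *HXK2* there were 255 and 204 of *GLK1* in Spt5-AA and 43.6 and 30.5 in Spt4-AA, against 6.16 and 8.78 in DMSO. In *spt4Δ* there were 15.2 and 17.4, against 6.64 and 12.4 in WT. The counts of *GLK1* exceeded those of *HXK2*, which has a coding sequence of similar length, only in the Spt5-AA libraries. The proportion of *EMI2* to *GLK1* was lower in Spt5-AA, and the values in Spt4-AA lay within those in DMSO. There were 38.7 and 32.8 counts of *EMI2* for each 100 of *GLK1* in Spt5-AA and 129 and 121 in Spt4-AA, against 142 and 102 in DMSO, and 134 and 106 in *spt4Δ* against 92.3 and 86.9 in WT.

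For each 100 counts of *GPD2* there were 356 and 281 of *GPD1* in Spt5-AA and 72.7 and 52.8 in Spt4-AA, against 33.7 and 22.8 in DMSO. The *spt4Δ* libraries had 14.5 and 30.4, against 22.4 and 28.8 in WT, with overlap. For each 100 counts of *GPP1* there were 176 and 157 of *GPP2* in Spt5-AA and 49.4 and 54.5 in Spt4-AA, against 12.2 and 13.0 in DMSO, and 103 and 63.5 in *spt4Δ* against 24.3 and 28.4 in WT. In both Spt5-AA libraries *GPD1* exceeded *GPD2* and *GPP2* exceeded *GPP1*, and in both DMSO libraries neither did.

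*PYK2* was a small part of the pyruvate kinase transcripts in all libraries. It had 1.02 and 1.22 counts per 100 of *CDC19* in Spt5-AA and 1.68 and 1.38 in Spt4-AA, against 0.351 and 0.500 in DMSO, and 1.46 and 1.18 in *spt4Δ* against 0.271 and 0.377 in WT. *GPM2* had 1.31 and 1.01 per 100 of *GPM1* in *spt4Δ*, against 0.238 and 0.281 in WT. The same ratio was 0.295 and 0.327 in Spt4-AA and 0.159 and 0.170 in Spt5-AA, against 0.166 and 0.155 in DMSO, so that Spt5-AA overlapped DMSO. Further pairs had a value in *spt4Δ* and WT only. *TDH1* had 5.89 and 4.78 per 100 of *TDH3* in *spt4Δ*, against 0.990 and 1.91 in WT. *ALD4* had 9.17 and 12.6 per 100 of *ALD6* in *spt4Δ*, against 2.49 and 4.06 in WT. *ADH2* had 0.214 and 0.214 per 100 of *ADH1* in *spt4Δ*, against 0.169 and 0.134 in WT. None of these overlapped, while *HXK1* to *HXK2* did, with 2.07 and 5.11 per 100 in *spt4Δ*, against 0.832 and 2.22 in WT. The share of all gene pairs whose ratios would not overlap was not computed. With 2 libraries against 2, an exact permutation test cannot go below p = 0.33.

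**Figure D4:**
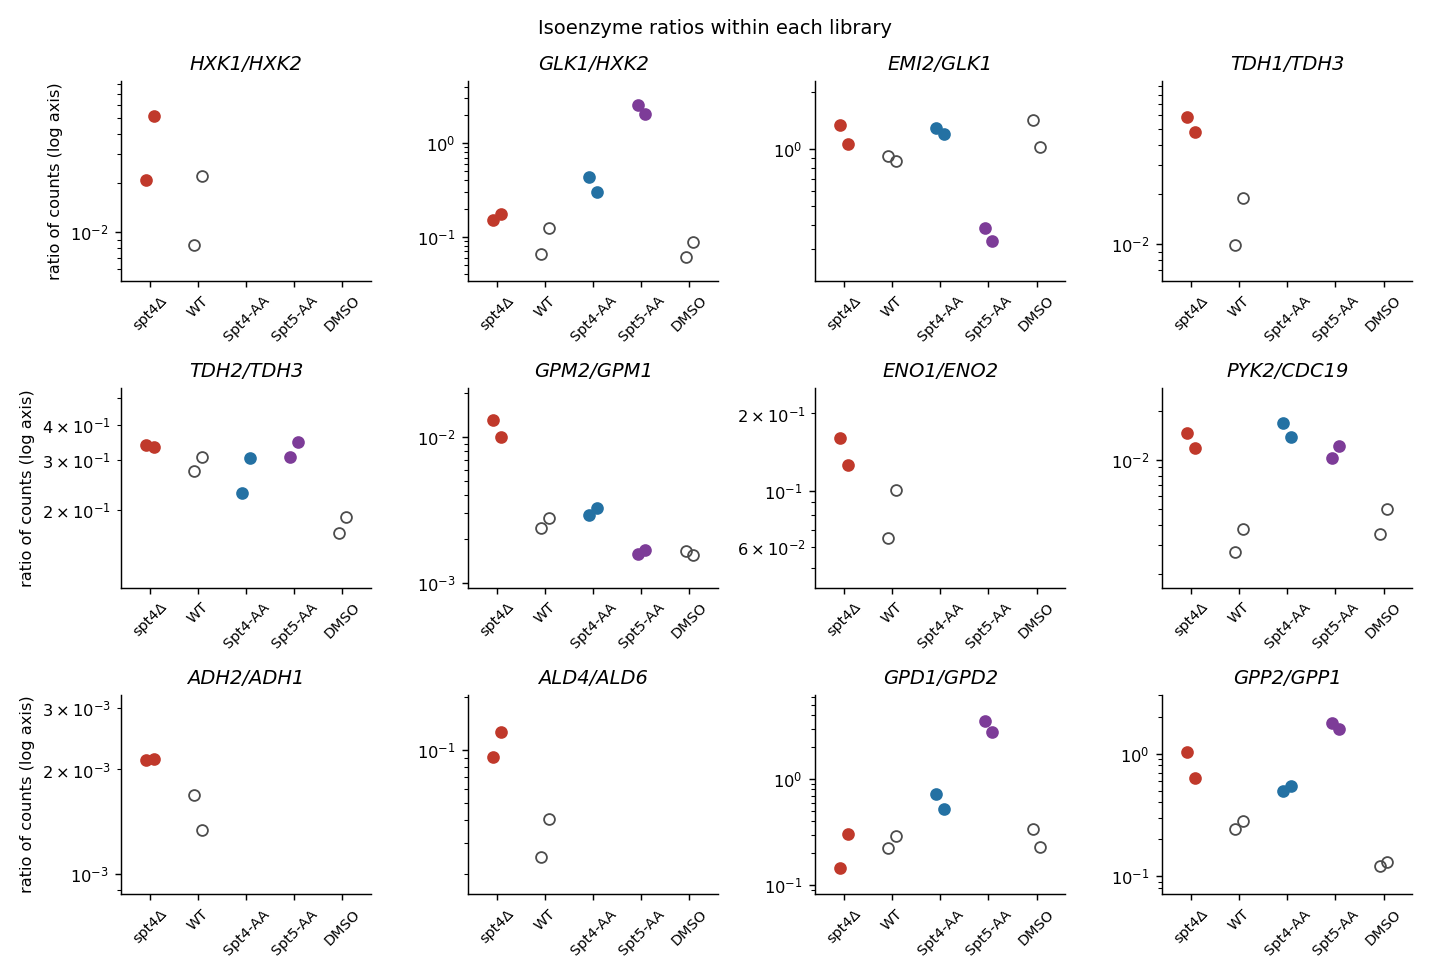
Ratio of the counts of 2 isoenzymes or homologues in each library (log axis), with 1 panel per pair. Filled points are *spt4Δ*, Spt4-AA and Spt5-AA, and open points are WT and DMSO. Panels without anchor-away points are pairs with a member only in the *spt4Δ* table. *GLK1*/*HXK2* reaches 2.55 and 2.04 in Spt5-AA, against 0.0616 and 0.0878 in DMSO.

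Some of these genes share sequence. The coding sequences of *TDH2* and *TDH3* were 95.8% identical and shared 232 runs of 50 bases, and those of *ENO1* and *ENO2* were 94.8% identical and shared 299. *ADH1* and *ADH2* were 88.8% identical with 140 shared runs, and *TDH1* and *TDH3* 88.9% with 84. How reads from such stretches were assigned is not given in the sources used here, so the values of these 7 genes are uncertain. This covers the calls of *TDH1* in *spt4Δ* and of *TDH2*, *TDH3*, *ADH1* and *ENO2* in Spt5-AA. The ratios *TDH1*/*TDH3* and *ADH2*/*ADH1* given above are uncertain too. The same holds for the ratios *TDH2*/*TDH3* (31% and 35% in Spt5-AA, 23% and 31% in Spt4-AA, against 17% and 19% in DMSO, and 34% and 33% in *spt4Δ* against 27% and 31% in WT) and *ENO1*/*ENO2* (16.1% and 12.6% in *spt4Δ*, against 6.55% and 10.0% in WT). Of the 50-base runs of *TDH1*, 15.7% occur elsewhere in the genome. The share was 31.3% for *TDH2*, 24.4% for *TDH3*, 23.6% for *ENO1* and *ENO2*, and 14% for *ADH1* and *ADH2*. *GLK1* and *EMI2* (68.7%), *GPD1* and *GPD2* (73.8%), *GPP1* and *GPP2* (82.7%), *CDC19* and *PYK2* (67.9%), *GPM1* and *GPM2* (58.7%) and *HXK1* and *HXK2* (77.7%) shared no run of 50 bases.

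The other genes of the pathway were taken from a list of transporters, regulators and linked enzymes. *PDC5*, the minor pyruvate decarboxylase, rose in each comparison relative to the median gene, with 3211 and 2417 in *spt4Δ*, against 91.1 and 67.4 in WT (log2 5.13, adjusted p = 2.43e-06 from limma), with 161 and 186 in Spt4-AA, against 36.3 and 41.1 in DMSO (log2 2.14), and with 471 and 401 in Spt5-AA, against 23.1 and 26.3 in DMSO (log2 4.09). As deposited it rose as well, by 5.97 in *spt4Δ*, by 1.85 in Spt4-AA and by 2.25 in Spt5-AA. *PDC1*, the main one, had 11620 and 15815 in *spt4Δ*, against 26032 and 27551 in WT (log2 -0.98, not called). It fell by 1.02 in Spt4-AA relative to the median gene and by 1.32 as deposited. In Spt5-AA it rose by 0.67 relative to the median gene and fell by 1.19 as deposited. *HXT1*, a low-affinity glucose transporter, fell relative to the median gene by 1.30 in *spt4Δ*, by 2.37 in Spt4-AA and by 0.60 in Spt5-AA. As deposited it fell by 2.66 in Spt4-AA and by 2.45 in Spt5-AA, while in *spt4Δ* the libraries overlapped WT (log2 -0.46, adjusted p = 0.692 from limma). Of the transporters and sensors, *HXT1* was the only one called relative to the median gene in *spt4Δ* (of 7) and in Spt4-AA (of 5). Beside it, 0.36% and 4.25% of all genes fell. In *spt4Δ* 2 of the 7 had a positive value on that scale and 5 a negative one. *HXT7* had 179 and 78.5 in *spt4Δ*, against 31.5 and 40.4 in WT (log2 1.71, adjusted p = 0.0709 from limma). As deposited its log2 value was 2.54 (adjusted p = 0.0523 from limma). In Spt5-AA 2 of 5 rose on that scale, *HXT3* (0.72) and *HXT4* (0.89), beside 25.9% of all genes, and *HXT1* fell, beside 28.2%. As deposited all 5 fell in Spt5-AA, with *HXT3* at -1.14 and *HXT4* at -0.89, beside 90.7% of all genes.

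In Spt5-AA all 8 measured genes of glucose repression and its relief rose relative to the median gene, among them *CAT8* (log2 1.95), *HAP4* (1.60), *MIG2* (1.55) and *ADR1* (1.20), beside 25.9% of all genes. As deposited 4 of these 8 fell and none rose, beside 90.7% and 2.38% of all genes. All 3 genes that set the level of fructose 2,6-bisphosphate rose relative to the median gene, beside 25.9% of all genes. The values were 1.95 for *PFK26*, 0.74 for *FBP26* and 0.63 for *PFK27*. As deposited *PFK27* (-1.20) and *FBP26* (-1.11) fell, beside 90.7% of all genes, and *PFK26* had 0.11 and was not called. In *spt4Δ* 0 of these 3 were called on either scale (limma, 0 with an unadjusted p under 0.05). The glyoxylate cycle and malate had 2 measured genes, and acetyl-CoA and oxaloacetate supply had 2. Of each pair 1 rose in Spt5-AA relative to the median gene, beside 25.9% of all genes. *ICL1*, the isocitrate lyase of the glyoxylate cycle, had 272 and 304 in Spt5-AA, against 29.1 and 19.4 in DMSO (log2 3.54, and 1.71 as deposited, where it rose too), and *PYC1*, pyruvate carboxylase, rose by 1.74. As deposited *PYC1* had -0.12 and was not called, and the other gene of each pair fell, *MDH2* (-1.52) and *ACS2* (-1.98). None of the 4 activators *GCR1*, *GCR2*, *TYE7* and *RAP1* was called relative to the median gene in Spt5-AA, with values between -0.30 and -0.20 (limma, 0 with an unadjusted p under 0.05). As deposited all 4 fell, with values between -2.14 and -2.04, beside 90.7% of all genes. In Spt4-AA *PFK26* (0.87) rose and *GCR1* (-0.67) fell relative to the median gene, beside 4.74% and 4.25% of all genes. As deposited *PFK26* (0.58) was not called, and *GCR1* (-0.96) and *GCR2* (-0.66) fell, beside 18.8% of all genes. On the scale of the median gene 0 of 8 genes of glucose repression were called in Spt4-AA (limma, 2 with an unadjusted p under 0.05). In *spt4Δ* 0 of 9 were called on either scale (limma, 0 with an unadjusted p under 0.05), and likewise 0 of the 4 activators.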

How the data were processed

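RNA-seq was analysed in 10 of the 46 libraries of the series. The authors deposited 3 tables of normalized counts, in the unit of a signal, in which each library's reads per gene had been divided by 1 factor. The submitters' processing notes name Trim Galore, TopHat and DESeq2 with the builds sacCer3/R64 and ASM294v2. The counter, the annotation and the source of the factors are not given in the sources used here. Reads were recovered as whole multiples of each library's lowest value above 0, and 100% were whole within 0.1 of a read. The 2 anchor-away tables were scaled separately and hold identical DMSO reads in all 4835 genes, so tests were made within a table. The deposited DESeq2 tables hold the authors' own fold changes and p-values and were not used. A value of 0 allows up to 3 reads, and intervals cover counting error only.

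Groups were compared with limma (3.58.1, under R 4.3.3), trended on mean level, after a pseudocount of 1 was added and log2 taken, which understates changes of low genes. Tests were two-sided. Benjamini-Hochberg adjustment covered every gene whose normalized counts averaged 10 or more. It was run on the deposited values and after median-ratio scaling, for the libraries of each comparison alone, without a term for replicate number. edgeR (4.0.16) and DESeq2 (1.42.0) on the recovered reads were alternatives, as were other pseudocounts, filters, scaling to the same total, a replicate block and each library left out. Whether replicates were separate cultures is not stated in the labels, so p-values measure the spread between these libraries. Positions, promoters and coding sequences came from the R64 assembly of RefSeq, read with Python 3.11.15 and Biopython. All members are named, with values per library for those called, the isoenzyme pairs and a few others chosen after their values were seen. The members and gene lists were chosen with earlier results of these data known.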

Additional observations from a re-analysis of the deposited data

Results flagged for a closer look

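Relative to the median gene, 6 members lay on opposite sides of both DMSO libraries in the 2 anchor-away strains. In each, both Spt5-AA libraries were above and both Spt4-AA libraries below. Of all genes tested, 37.9% were higher without overlap in Spt5-AA and 28.1% were lower without overlap in Spt4-AA. The share of all genes that met both conditions was not computed, so whether 6 members is unusual cannot be said. The log2 change in Spt5-AA minus that in Spt4-AA was 1.47 for *CDC19* (0.93 in Spt5-AA and -0.54 in Spt4-AA), 1.46 for *TDH3* (1.21 in Spt5-AA and -0.26 in Spt4-AA), 1.40 for *FBA1* (1.01 in Spt5-AA and -0.39 in Spt4-AA), 1.26 for *ENO2* (0.88 in Spt5-AA and -0.37 in Spt4-AA), 0.96 for *PGK1* (0.41 in Spt5-AA and -0.55 in Spt4-AA) and 0.29 for *ALD6* (0.19 in Spt5-AA and -0.10 in Spt4-AA). The difference itself was not tested, the comparisons share their DMSO libraries, and the 2 tables were scaled separately. The Spt5-AA values were called in 5 of the 6 genes, *ALD6* being the exception, and the Spt4-AA values in 0 of the 6 (limma).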

How the results depend on the processing

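In *spt4Δ* the counts of members called depended on the settings. As deposited 1 member was called, but 0 with a pseudocount of 10, a minimum mean of 100, the same total per library, edgeR or the replicate block, 3 with DESeq2, and 0 to 32 with a library left out. Relative to the median gene 3 were called, 0 with the same total, 5 with DESeq2, 6 with the replicate block and 1 to 23 with a library left out. The replicate 1 minus replicate 2 differences in *spt4Δ* and WT had a correlation of -0.37 over 4189 genes, and with crossed replicate numbers, chosen after seeing the data, 0 and 9 members were called. In Spt4-AA 0 to 18 members as deposited and 3 to 16 relative to the median gene were called with a library left out, against 8 and 5, and 3 relative to the median gene with a minimum mean of 100. In Spt5-AA the counts stayed within 1.5 times of 23 on both scales in the alternatives run, at 21 to 23 as deposited and 18 to 25 relative to the median gene with a library left out. The difference of glucose-repressed and main genes ran from 0.91 to 1.52 in *spt4Δ* and from 1.74 to 2.05 in Spt4-AA with a library left out, and reached 2.70 in Spt5-AA with a minimum mean of 100, which leaves *PYK2* out. Leaving out *ALD2* could be run in *spt4Δ* only, and leaving out *ENO1* likewise. With the same total per library, 12 members that fell as deposited in Spt5-AA had positive log2 values, namely *ADH4* (1.55), *ADH1* (1.49), *TPI1* (1.42), *TDH3* (1.32), *FBA1* (1.12), *CDC19* (1.04), *ENO2* (1.00), *ADH5* (0.56), *PGK1* (0.52), *PGI1* (0.48), *PFK2* (0.31) and *ALD6* (0.30). This follows from the scaling, since the Spt5-AA libraries have lower sums of normalized counts. Depth limits the low genes most, with 12 reads of *GPM2* in each DMSO library.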

Other observations

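*GPD1* and *GPP1* differed between the *spt4Δ* libraries. *GPD1* had 41.0 and 123 counts relative to the median gene in *spt4Δ*, against 66.4 and 86.6 in WT, and *GPP1* had 377 and 708, against 1051 and 970 in WT. The other genes of glycerol formation differed less between them. *GPD2* had 284 and 405 in *spt4Δ*, against 296 and 300.3 in WT, and *GPP2* had 389 and 450 in *spt4Δ*, against 255 and 275 in WT.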
